A study of Mus musculus with 9 samples.

Results

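DNA replication and S phase genes were followed across 3 kinds of mouse cells. The set holds 47 genes chosen by function from the machinery that licenses origins, unwinds and copies DNA, supplies deoxynucleotides and starts S phase. A probe set naming that gene alone was found for 46 of the 47, out of 18193 genes on the array, and each gene was read from whichever of its probe sets was brightest on average. Chaf1a had none and has no value here. Of the 46, 45 were among the 12559 genes tested, and Tyms, the thymidylate synthase gene, was too dim to be tested. The members were chosen with earlier results of these data known, so they are described by counts and medians beside the same figures over all tested genes.

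Mouse embryonic fibroblasts (MEF), connective tissue cells cultured from C57BL/6 embryos at embryonic day 13.5, were compared with chemically induced cardiomyocyte-like cells (CiCM) and with cardiomyocytes (CM), each with 3 arrays labelled as biological replicates. CiCM were made from MEF with 6 small molecules, namely CHIR99021 and RepSox at 10 µM each, Forskolin at 50 µM, VPA at 0.5 mM, Parnate at 5 µM and TTNPB at 1 µM, and beating clusters were picked on day 24. CM came directly from mouse hearts, and their strain and age are not given in the sources used here. No gene was altered in any group, and no untreated MEF kept until day 24 are among the groups, so treatment and time in culture cannot be told apart. MEF are a mixed culture, and the picked clusters and heart preparations can hold more than 1 cell type. The values are total RNA of whole samples, so fewer cycling cells and less RNA per cell cannot be told apart.

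Replication starts at origins, where the origin recognition complex, CDC6 and CDT1 load the MCM2 to MCM7 ring in G1, and geminin blocks further loading afterwards. In S phase CDC45 and the GINS complex join the ring to form the working helicase, primase and DNA polymerases alpha, delta and epsilon copy the strands, and the PCNA clamp holds the polymerases on DNA. Many of these genes are transcribed by E2F factors, which the retinoblastoma family of proteins restrains until cyclin and kinase activity releases them. Heart muscle cells stop dividing soon after birth, and muscle differentiation in general goes with withdrawal from the cell cycle.

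Values are deposited log2 signals of 3' expression arrays, on which a step of 1 is a doubling, and levels of different genes were not set against each other because probe sets differ in brightness. The table medians lay between 6.37 and 6.85, and the trimmed mean of linear signals was 500.003 on every array. The 18 hybridisation control probe sets averaged 11.63 to 11.71 in MEF, 11.73 to 11.98 in CiCM and 12.10 to 12.78 in CM, and the actin 3' minus 5' difference, a sign of RNA quality, was 0.22 to 0.29, 0.28 to 0.48 and 0.86 to 1.24. Their part in the results that involve CM was not tested, and a scan batch running along with cell type could not be separated from it.

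Promoter sequences of the licensing genes are shown because all 11 of these genes were lower in CiCM than in MEF, and most of those with a promoter in the table carry a close match to the E2F motif. RefSeq promoter windows (GRCm38.p6, 250 bases before to 50 bases after an annotated start) were found for 39 members. Each line gives 1 match in capitals with up to 11 bases on either side, 5′ to 3′ on the gene's own strand.

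Mcm3, chr1:20820275-20820304, minus strand: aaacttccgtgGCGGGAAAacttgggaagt

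Mcm5, chr8:75109345-75109374, plus strand: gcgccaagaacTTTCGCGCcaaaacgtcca

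Mcm6, chr1:128359734-128359763, minus strand: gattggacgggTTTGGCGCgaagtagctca

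Mcm7, chr5:138171849-138171878, minus strand: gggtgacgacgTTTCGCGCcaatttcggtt

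Orc1, chr4:108579416-108579445, plus strand: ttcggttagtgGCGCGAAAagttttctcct

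Cdc6, chr11:98908002-98908031, plus strand: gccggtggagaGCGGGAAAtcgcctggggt

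Cdt1, chr8:122568036-122568064, plus strand: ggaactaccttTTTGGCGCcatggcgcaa

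The first bases of these matches lie at -153 from the start in Mcm5, -138 in Cdc6, -47 in Mcm6 and -27 in Orc1, before it, and at 17, 20 and 33 in Mcm7, Mcm3 and Cdt1, after it. The 250 bases upstream of Mcm5, the licensing gene with the lowest value in CiCM relative to MEF, are printed whole, with the E2F matches and the CCAAT boxes in capitals.

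Mcm5, chr8:75109259-75109508, plus strand: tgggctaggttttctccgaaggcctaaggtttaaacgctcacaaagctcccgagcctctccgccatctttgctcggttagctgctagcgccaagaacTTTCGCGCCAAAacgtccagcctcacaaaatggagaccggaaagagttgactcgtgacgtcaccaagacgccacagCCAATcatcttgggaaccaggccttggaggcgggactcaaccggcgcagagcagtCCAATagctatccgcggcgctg

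The stretch holds 2 overlapping E2F matches, 1 on each strand, and 2 CCAAT boxes.

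Replication genes were lower in CiCM than in the fibroblasts they were made from. A gene was called when limma's adjusted p (Benjamini-Hochberg over all 12559 genes) was under 0.05 and the log2 difference was at least 1. By that rule 35 of 45 tested members were lower in CiCM and 0 were higher, where 12.2% of all tested genes were lower, 11.6% higher and 23.8% either. The median difference was -1.86, against -0.03 over all tested genes, and ran from -4.40 for Uhrf1 to -0.09 for Pola2. All 3 CiCM arrays lay below all 3 MEF arrays for 43 of the 46 measured members, against 36.4% of tested genes. The other three, Pola2, Rfc2 and Rpa2, overlapped. The members' median log2 signal per array was 9.62 to 9.77 in MEF, 7.89 to 8.08 in CiCM and 8.27 to 8.47 in CM.

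In CM, 31 of the 45 tested members were lower than in MEF, where 21.8% of all tested genes were lower, and 1, Gmnn, was higher, where 22.1% were higher and 43.9% were called in either direction. The Gmnn call did not hold under every scaling or without the second CM array, as given with its values. The median difference was -1.81, and values ran from -3.73 for Gins2 to 1.06 for Gmnn. The groups did not overlap for 39 measured members that were lower and 2 that were higher, against 38.7% and 36.5% of tested genes. Both comparisons use the same 3 MEF arrays, so they are given side by side and not as independent evidence of each other. For 5 members (Orc1, Cdc6, Gins2, Gins3 and Mcm10) only MEF reached the filter line of 6.58, and 6 more (Cdc45, Gins1, Pole, Pole2, Tk1 and Uhrf1) reached it in MEF and CM but not in CiCM, and E2f1 reached it in MEF and CiCM but not in CM. In such genes a group under the line is bound to lie below a group that reached it, also between CiCM and CM. The called size need not be met, as in Gins3 (-0.81 and -0.92, not called). Their low values have a less certain order. Above the line in all groups lay 33 members.

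**Figure D1:**
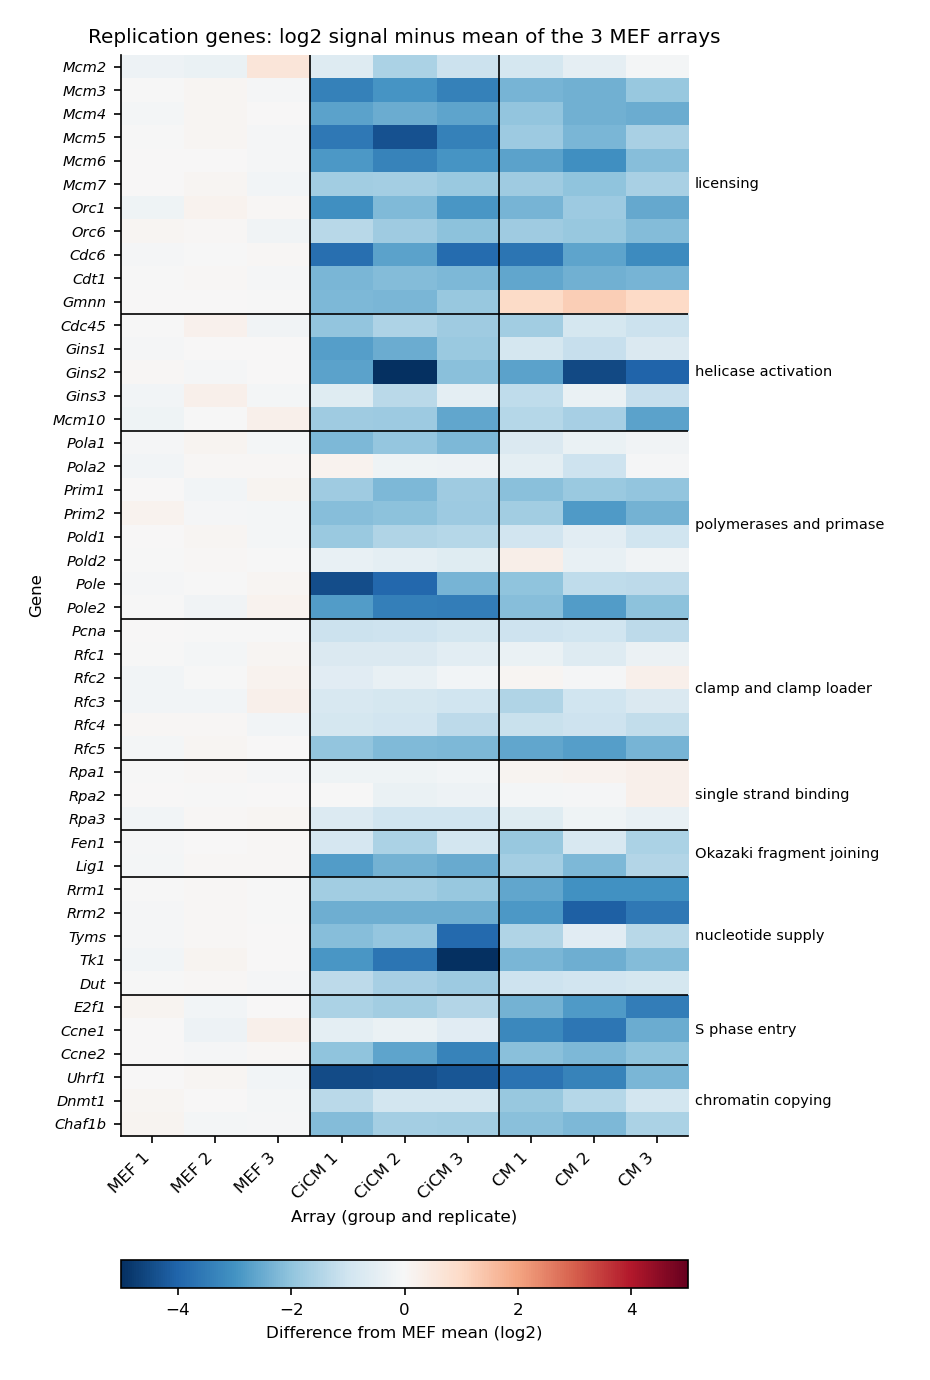
Each row is 1 of the 46 measured replication genes, grouped by role, and each column 1 array; colour gives the log2 signal minus the mean of the 3 MEF arrays, with values beyond 5 drawn in the end colour. CiCM columns are blue for most genes, the rows of Rpa1, Rpa2, Pola2, Pold2 and Rfc2 stay pale, and Gmnn is blue in CiCM and red in CM (the latter a difference of 1.06 that was not called after centring, levelling on controls or without the second CM array).

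Licensing genes were lower in CiCM without exception: 11 of 11 were called, with a median difference of -2.59. In CM 9 of 11 were lower, with a median of -2.21. Beside these counts and those of the other roles, 12.2% of all tested genes were lower in CiCM and 21.8% in CM. Mcm5, a subunit of the helicase ring, had log2 signals of 11.03, 11.13 and 11 on the MEF arrays, 7.49, 6.70 and 7.69 in CiCM, and 9.23, 8.75 and 9.42 in CM. The 3 groups did not overlap, with CM between the other two. The difference was -3.76 ± 0.25 (standard error from limma) for CiCM against MEF (adjusted p = 7.03e-07) and -1.92 ± 0.25 for CM against MEF (adjusted p = 4.29e-05). Mcm3, the next ring subunit by size of the difference, gave 10.65, 10.78 and 10.61 in MEF, 7.32, 7.74 and 7.30 in CiCM, and 8.35, 8.27 and 8.79 in CM. Again CM lay between MEF and CiCM on every array, and the differences from MEF were -3.23 ± 0.18 in CiCM (adjusted p = 1.94e-07) and -2.21 ± 0.18 in CM (adjusted p = 1.01e-06), although 1 of its other probe sets gave -0.54 in CM.

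Mcm4, Mcm6 and Mcm7, also of the ring, were lower by -2.59, -3.05 and -1.76 in CiCM and by -2.28, -2.61 and -1.79 in CM. Mcm2 was the exception in size. Its log2 signals were 9.38, 9.29 and 10.26 in MEF, 9.0, 8.06 and 8.58 in CiCM, and 8.78, 9.21 and 9.53 in CM. The call in CiCM (-1.09 ± 0.31, adjusted p = 0.0125) rested on the high MEF array 3 and the low CiCM array 2: the difference was -0.79 without the first of these and -0.85 without the second. Its other probe set above the line gave -2.57 in CiCM and -2.11 in CM, so the reading of Mcm2 depends on the probe set.

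Cdc6, which helps load the ring, stood at 8.68, 8.72 and 8.78 in MEF, 4.95, 6.04 and 4.87 in CiCM, and 5.07, 6.10 and 5.57 in CM. MEF lay far above both other groups, which overlapped; the differences were -3.44 ± 0.40 (adjusted p = 4.99e-05) and -3.15 ± 0.40 (adjusted p = 4.23e-05). CiCM and CM signals of Cdc6 lay under the filter line, and with 32 added to the linear signals the differences were -2.66 and -2.5. Cdt1, its partner in loading, was lower by -2.23 and -2.44, the origin recognition subunits Orc1 and Orc6 by -2.72 and -1.72 in CiCM and by -2.22 and -1.94 in CM. A second probe set of Orc1 gave only -0.63 and -0.81.

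Gmnn, which encodes the licensing inhibitor geminin, was called lower in CiCM and higher in CM than in MEF, the latter not under every scaling. Its log2 signals were 10.36, 10.35 and 10.32 in MEF, 8.09, 8.06 and 8.43 in CiCM, and 11.31, 11.56 and 11.34 in CM. The groups were fully separate, with CM highest and CiCM lowest. CiCM was below MEF by -2.15 ± 0.12 (adjusted p = 2.38e-07) and below CM by -3.21 ± 0.12 (adjusted p = 1.18e-08), the largest CiCM to CM difference among the members. CM was above MEF by 1.06 ± 0.12 (adjusted p = 1.67e-05), but this fell under the called size with centring on array medians (0.69), levelling on the hybridisation controls (0.26, adjusted p = 0.247), the largest constant added to the linear signals (0.99) or without the second CM array (0.98). Gmnn had a single probe set.

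Helicase activation genes followed, with 4 of 5 lower in CiCM (median -2.08) and 3 of 5 lower in CM (median -1.23). Gins2, a GINS subunit, read 9.53, 9.44 and 9.49 in MEF, 6.83, 4.30 and 7.41 in CiCM, and 6.82, 4.97 and 5.47 in CM. MEF was tight and the other two groups were widely spread and overlapped. The differences were -3.31 ± 0.72 (adjusted p = 0.00301) and -3.73 ± 0.72 (adjusted p = 0.000824), and a second probe set gave -3.44 and -3.82. Gins1, of the same complex, was lower in CiCM by -2.35 and stood at -0.92 in CM, just short of the called size there (-1.01 without the third CM array). Mcm10, which helps activate the helicase, was lower by -2.08 and -1.92.

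Cdc45 was lower by -1.77 and -1.23, but in CM it was at -0.97 without the first CM array, and a dimmer second probe set gave 1.21, so the CM reading depends on the probe set. Gins3 stood at -0.81 (adjusted p = 0.0758) and -0.92 (adjusted p = 0.0372) and was not called in either comparison; without the second CM array its CM value was -1.20 and passed, and a second probe set gave -1.56 in CM.

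Polymerase and primase genes were not lower throughout. In CiCM 6 of 8 were lower and in CM 4 of 8, with medians of -1.96 and -1.19. Pole and Pole2, the catalytic and second subunits of polymerase epsilon, were lower by -3.57 and -3.22 in CiCM and by -1.54 and -2.34 in CM. Prim1 and Prim2, the primase subunits, were lower by -1.92 and -1.99 in CiCM and by -1.98 and -2.31 in CM. Averaged over probe sets, Prim2 was not called in CiCM (-0.63) and Pole2 was not called in CM (-1.43). Both means include a probe set under the filter line (1.60 for Prim2 in CiCM, -0.53 for Pole2 in CM).

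Pola1, the catalytic subunit of polymerase alpha, separated the 2 comparisons. Its log2 signals were 8.99, 9.17 and 8.92 in MEF, 6.77, 7.11 and 6.80 in CiCM, and 8.31, 8.70 and 8.85 in CM. The CM arrays lay close under MEF and all above CiCM. CiCM was lower than MEF by -2.13 ± 0.19 (adjusted p = 6.17e-06), and CM stood at -0.41 ± 0.19 (adjusted p = 0.0742). Pola2, the second subunit of the same polymerase, read 8.59, 8.77 and 8.78 in MEF, 8.90, 8.50 and 8.47 in CiCM, and 8.24, 7.66 and 8.67 in CM. These arrays overlapped across all groups, and Pola2 stood at -0.09 ± 0.24 in CiCM (adjusted p = 0.781). Of polymerase delta, Pold1, the catalytic subunit, was lower in CiCM (-1.58) and stood at -0.84 in CM, but its second probe set above the line gave -0.61 and 0.27, so its reading depends on the probe set. Pold2 stood at -0.50 and -0.09.

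The clamp and its loader had smaller differences. In CiCM 3 of 6 were lower, with a median of -0.95, and in CM 4 of 6, with a median of -1.10. Pcna, the sliding clamp, gave 12.90, 12.89 and 12.89 in MEF, 11.82, 11.86 and 11.98 in CiCM, and 11.87, 11.89 and 11.60 in CM. CiCM and CM overlapped well below MEF, at -1.01 ± 0.09 (adjusted p = 7.67e-06) and -1.11 ± 0.09 (adjusted p = 1.31e-06). The first of these sits at the edge of the called size and lost the call without the first CiCM array (-0.98) or the second (-1.0). Rfc5, a loader subunit, was lower by -2.14 and -2.57, and Rfc4 by -1.04 and -1.12, the former at -0.91 without the third CiCM array and the latter at -0.97 in another probe set. Rfc3 was called in CM (-1.09), with -0.88 in CiCM, but not without the third MEF array (-0.97) or the first CM array (-0.87). Its other probe set above the line gave -1.23 in CiCM and -2.31 in CM, and the mean over probe sets was called in CiCM too (-1.06). Rfc1 and Rfc2 stood at -0.67 and -0.36 in CiCM and -0.43 and 0.11 in CM.

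The 3 genes of replication protein A, which coats single-stranded DNA in replication and also in repair, were not called in either comparison. Rpa1 read 11.86, 11.94 and 11.83 in MEF, 11.65, 11.65 and 11.75 in CiCM, and 12.02, 12.04 and 12.15 in CM. The groups were narrowly separate, at -0.19 ± 0.08 in CiCM (adjusted p = 0.0559) and 0.19 ± 0.08 in CM (adjusted p = 0.0431). Rpa2 stood at -0.20 and 0.04, while its second probe set gave -0.54 and -1.01, so its CM reading depends on the probe set. Rpa3 stood at -0.90 and -0.40, and was called lower in both when the arrays were levelled on the hybridisation controls and in CiCM without the first CiCM array (-1.0).

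Lig1 and Fen1, which join and trim Okazaki fragments, were lower in both. Lig1 was lower by -2.56 ± 0.20 in CiCM (adjusted p = 2.92e-06) and by -1.81 ± 0.20 in CM (adjusted p = 1.48e-05). Fen1 was lower by -1.11 and -1.42; without the second CiCM array the former was -0.88 and lost its call.

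**Figure D2:**
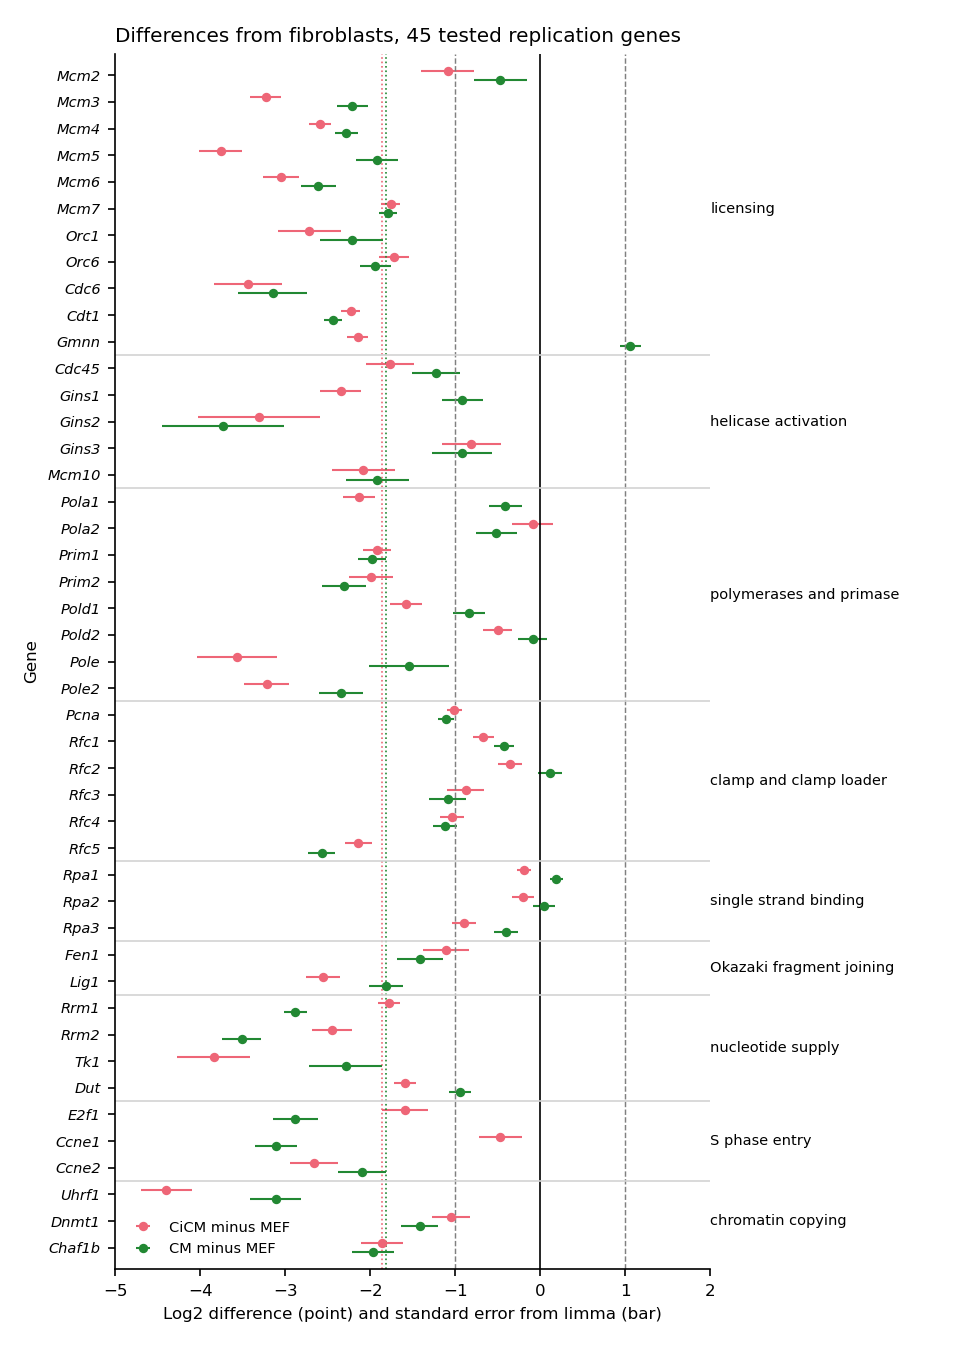
Points are log2 differences of the 45 tested replication genes, CiCM minus MEF in pink and CM minus MEF in green, with limma's standard error as the bar, dashed lines at the called size of 1 and dotted lines at the medians of -1.86 and -1.81. Most pairs of points lie left of -1 and near each other, while Gmnn, Ccne1, Pole, Mcm5 and Pola1 have their 2 points furthest apart.

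All 4 tested genes of nucleotide supply were lower in CiCM (median -2.12) and 3 of 4 were lower in CM (median -2.58). Rrm1 and Rrm2 encode the large and small subunits of ribonucleotide reductase, which makes deoxynucleotides. Rrm1 read 12.11, 12.19 and 12.10 in MEF, 10.41, 10.41 and 10.23 in CiCM, and 9.55, 9.11 and 9.10 in CM. Rrm2 read 12.25, 12.33 and 12.28 in MEF, 9.83, 9.85 and 9.84 in CiCM, and 9.43, 8.21 and 8.70 in CM. For both genes MEF was highest and CM lowest with no overlap, whereas for Mcm5 CiCM was lowest. The differences from MEF were -1.78 ± 0.13 and -2.45 ± 0.23 in CiCM (adjusted p = 1.15e-06 and 1.09e-05) and -2.88 ± 0.13 and -3.51 ± 0.23 in CM (adjusted p = 1.18e-08 and 2.47e-07).

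Tk1, the thymidine kinase of cycling cells, gave 9.36, 9.63 and 9.52 in MEF, 6.61, 5.86 and 4.53 in CiCM, and 7.24, 7.08 and 7.33 in CM. CiCM was lowest and most spread, and the differences from MEF were -3.84 ± 0.43 (adjusted p = 3.25e-05) and -2.29 ± 0.43 (adjusted p = 0.000647). Dut, which removes dUTP, was lower in CiCM by -1.59 and stood at -0.94 in CM; its second, dimmer probe set gave 0.35 in CiCM, so its direction depends on the probe set. Tyms, untested, read 6.28, 6.39 and 6.36 in MEF, 4.20, 4.42 and 2.45 in CiCM, and 4.84, 5.76 and 4.97 in CM, all under the filter line. A further probe set names Tyms together with Tyms-ps and was not used.

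Of the 3 genes of S phase entry, 2 were lower in CiCM (median -1.59) and 3 in CM (median -2.88). Ccne1, the gene of cyclin E1, which with CDK2 starts S phase, read 10.08, 9.83 and 10.31 in MEF, 9.59, 9.74 and 9.49 in CiCM, and 6.85, 6.46 and 7.59 in CM. CiCM lay just under MEF, at -0.47 ± 0.25 (adjusted p = 0.146), while CM lay far below both, at -3.11 ± 0.25 from MEF (adjusted p = 1.14e-06). The second probe set of Ccne1 gave -0.90 and -2.93. Ccne2, the gene of cyclin E2, was lower by -2.66 ± 0.28 in CiCM (adjusted p = 2.62e-05) and by -2.10 ± 0.28 in CM (adjusted p = 6.37e-05). E2f1, an activating E2F factor, read 9.24, 8.98 and 9.13 in MEF, 7.52, 7.39 and 7.67 in CiCM, and 6.76, 6.30 and 5.66 in CM, in fully separate groups. It was lower by -1.59 ± 0.27 (adjusted p = 0.000611) and by -2.88 ± 0.27 (adjusted p = 3.46e-06), although its second probe set gave only -0.37 in CiCM, with -1.99 in CM.

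Of the genes that copy chromatin marks, all 3 that were measured were lower in both. Uhrf1, which brings the maintenance methylase to newly copied DNA, had the largest difference of all members in CiCM. Its log2 signals were 10.60, 10.68 and 10.45 in MEF, 6.11, 6.13 and 6.29 in CiCM, and 6.88, 7.23 and 8.29 in CM. The CiCM arrays were tight at the bottom and the third CM array stood above the other CM arrays. The differences were -4.40 ± 0.30 (adjusted p = 1.03e-06) and -3.11 ± 0.30 (adjusted p = 5e-06), and -3.90 and -2.89 with 32 added to the linear signals. Dnmt1, the maintenance methylase itself, was lower by -1.05 and -1.42, the former at -0.91 and not called without the first CiCM array. Chaf1b, a subunit of the chromatin assembly factor, was lower by -1.86 and -1.97.

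Induced cells and heart cells were compared directly to find the members whose levels differed between them. Of the 45 tested members, 8 were lower in CiCM, where 19% of all tested genes were lower, and 4 were higher, where 16.5% were higher and 35.5% were called either way; 33 members were not called. These shares do not stand above the background. The median difference was -0.30, but it was 0.01 with centring on array medians and 0.27 with levelling on the hybridisation controls, so the direction of the median turns with the scaling. Arrays did not overlap for 17 members that were lower and 6 that were higher, against 34.4% and 33.5% of tested genes.

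The 8 lower members were Gmnn (-3.21), Pole (-2.03), Mcm5 (-1.84), Pola1 (-1.73), Tk1 (-1.55), Gins1 (-1.44), Uhrf1 (-1.29) and Mcm3 (-1.02). The CiCM means of Pole, Tk1, Gins1 and Uhrf1 lay under the filter line, and with 32 added these differences were -1.41, -1.07, -1.18 and -1.02, while Mcm3 lost its call (-0.90). Mcm5 differed by -1.84 ± 0.25 (adjusted p = 7.9e-05) and Pola1 by -1.73 ± 0.19 (adjusted p = 1.68e-05). The 4 higher members were Ccne1 (2.64), E2f1 (1.29), Rrm1 (1.10) and Rrm2 (1.06), cyclin E1, an E2F factor and both ribonucleotide reductase subunits. The CM mean of E2f1 lay under the filter line, and its call was lost with 32 added (0.99). Ccne1 was higher by 2.64 ± 0.25 (adjusted p = 6.49e-06), with 2.03 from its second probe set.

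Of these 12 calls, Gmnn, Mcm5, Pola1 and Ccne1 were kept in every alternative that tested them. Leaving out 1 array ended the calls of Mcm3 (-0.95 without the first CiCM array, -0.94 without the third, -0.86 without the third CM array), Tk1 (-0.98 without the third CiCM array), Uhrf1 and E2f1 (-0.88 and 1.00 without the third CM array) and Rrm2 (0.78 without the second CM array). Gins2 passed as higher without the second CiCM array (1.37), and Pole2 passed as lower without the first CiCM array (-1.10) or the second CM array (-1.11). Averaging over probe sets ended the calls of Rrm1 (0.37) and E2f1 (0.55). These means include a probe set under the filter line (-1.08 and -1.25), while those above it gave 1.10 and 1.09 for Rrm1 and 1.29 and 1.62 for E2f1. With averaging, Mcm6 (-1.42) and Cdc45 (-1.72) passed as lower.

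**Figure D3:**
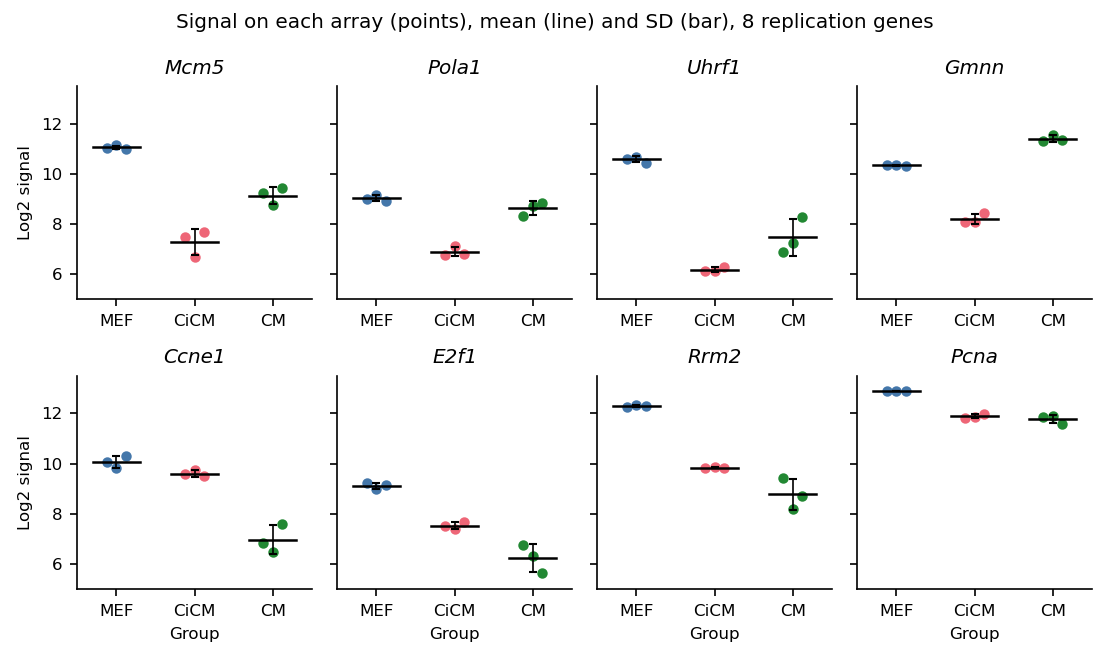
Log2 signals of 8 replication genes on each array (points), with the group mean (long line) and SD (bar), for 3 MEF, 3 CiCM and 3 CM arrays. Mcm5, Pola1, Uhrf1 and Gmnn are lowest in CiCM, Ccne1, E2f1 and Rrm2 are lowest in CM, and Pcna lies about 1 below MEF in both.

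Other genes of the pathway, which are no members, were called in smaller shares than the members in the comparisons with MEF. Over all tested genes, 12.2% were lower and 11.6% higher in CiCM, and 21.8% and 22.1% in CM. Of 28 further tested genes of the replication machinery, 11 were lower and 0 higher in CiCM (median -0.85), and 11 were lower and 1 higher in CM (median -0.60). Among the lower ones were Dbf4, the activator of the CDC7 kinase that fires origins (-2.31 in CiCM, -3.72 in CM), Clspn, which carries checkpoint signals at forks (-2.94 and -3.02), and Wdhd1, which couples polymerase alpha to the helicase (-2.59 and -2.01). Clspn reached the filter line in MEF alone, and its differences were -2.53 and -2.58 with 32 added. Dscc1, of an alternative clamp loader, also reached the line in MEF alone, and its differences (-4.95 and -3.90) were -2.73 and -2.47 with 32 added. Timeless, of the fork protection complex, was lower in CiCM (-1.80) and stood at 0.68 in CM. Pold3, of polymerase delta, was higher in CM (2.65 ± 0.75, adjusted p = 0.00873), with arrays at 8.90, 12.49 and 12.44 against 8.58 to 8.65 in MEF, so the first CM array stood apart from the other two. Dbf4 was the 1 gene of this list higher in CiCM than in CM (1.41).

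Further nucleotide synthesis genes numbered 19 tested, of which 5 were lower and 0 higher in CiCM (median -0.80) and 8 lower and 1 higher in CM (median -0.72). Dck, the deoxycytidine salvage kinase, was lower in both (-2.19 and -2.90). Mthfd2, a mitochondrial folate enzyme, stood at -0.87 in CiCM and was lower in CM by -4.75, and between CiCM and CM it differed by 3.88 ± 0.12 (adjusted p = 4.11e-09). Rrm2b, the reductase subunit used outside S phase, stood at 0.08 in CiCM and was higher in CM by 1.08 ± 0.19 (adjusted p = 0.000427).

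E2F, pocket protein and G1/S control genes numbered 25 tested, of which 8 were lower and 3 higher in CiCM (median -0.44) and 14 lower and 3 higher in CM (median -1.03). The share that was higher, 12% in each, was near the 11.6% of all tested genes in CiCM and below the 22.1% in CM. In CiCM Ccna2, the cyclin of S phase and G2 (-4.26), the repressor E2f7 (-3.98), Ccnd1, cyclin D1 (-2.55), and the inhibitor gene Cdkn1c (-2.48) were lower. The CiCM mean of E2f7 (5.1) lay under the filter line, and its difference was -3.02 with 32 added. The higher genes were E2f2 (1.34), Rb1, the retinoblastoma gene (1.30), and Cdkn1a, which encodes the p21 inhibitor of cyclin kinases (1.25). Cdkn1a read 12.71, 12.88 and 12.60 in MEF, 13.91, 14.02 and 14.01 in CiCM, and 10.57, 9.69 and 9.48 in CM, highest in CiCM and lowest in CM with no overlap. It differed by 1.25 ± 0.22 in CiCM against MEF (adjusted p = 0.000922), by -2.81 ± 0.22 in CM against MEF (adjusted p = 9.89e-07) and by 4.06 ± 0.22 between CiCM and CM (adjusted p = 1.28e-07). Of the 25 genes, 6 were lower and 6 higher in CiCM than in CM (24% each), against 19% and 16.5% of all tested genes. The members had 17.8% and 8.89% there.

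In CM the higher genes were Tfdp2, a dimer partner of E2F (2.89), Rbl2, the p130 pocket protein (1.32), and Cdkn2c, an inhibitor of CDK4 and CDK6 (1.04), which stood at 0.01, 0.17 and -0.26 in CiCM. The lower genes there included Skp2, which targets p27 for destruction (-3.93), and Ccna2 (-2.88). The CM mean of Skp2 (6.22) lay under the filter line, and its difference was -3.45 with 32 added. Ccnd2 was lower in both (-1.23 and -1.70), Ccnd3 stood at 0.23 and -0.87, and E2f4, a repressive factor read close to the filter line, stood at -0.44 and 0.01. Genes of chromatin and histone supply in S phase were lower for 6 of 12 in CiCM (median -1.15) and 7 of 12 in CM (median -1.48) with 0 higher. Among them were Hmgb2, a chromatin protein (-3.43 in CiCM), and Hells, a chromatin remodeller (-3.74 in CM). The CM mean of Hells (6.4) lay under the filter line, and its difference was -3.31 with 32 added. Esco2, a cohesin acetylase, reached the filter line in MEF alone, with CiCM arrays as low as 0, so its difference in CiCM (-5.34, or -2.27 with 32 added) has no certain size.

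**Figure D4:**
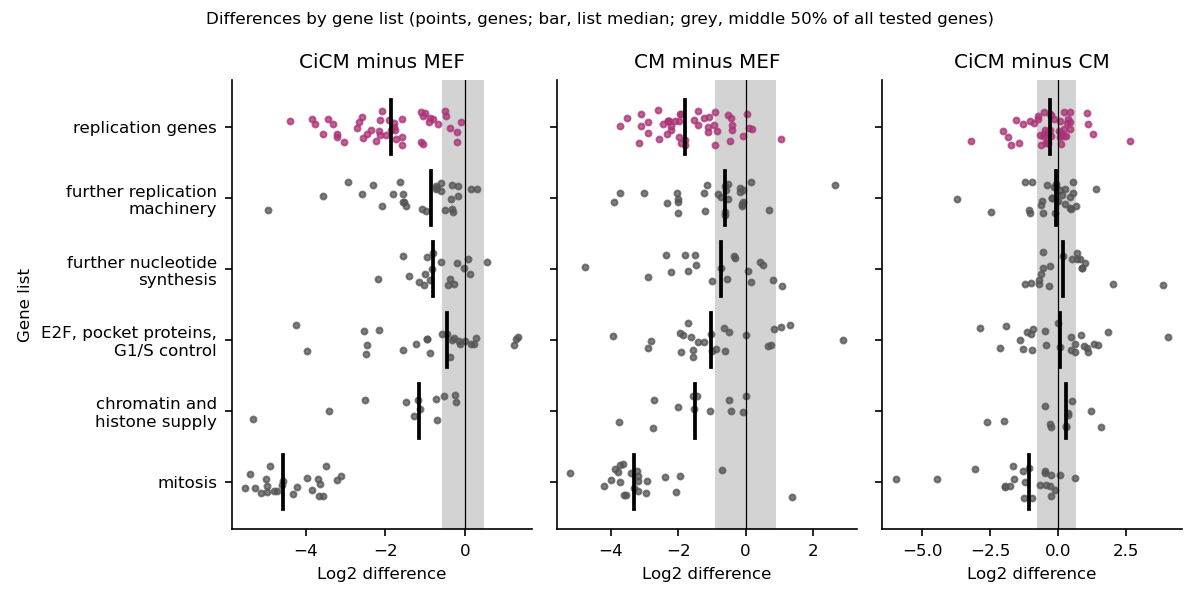
Points are log2 differences of single tested genes in the replication set and 5 other lists, for the 3 comparisons; the black bar is the list's median and the grey band the middle 50% of all tested genes. Mitosis genes lie furthest to the left in the comparisons with MEF, with medians of -4.57 and -3.32, and the replication genes come next, with -1.86 and -1.81.

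Mitosis genes, set beside the replication genes as the other arm of the cell cycle, had larger differences. All 23 tested were lower in CiCM (median -4.57, range -5.53 to -3.12). In CM 21 were lower (median -3.32, range -5.19 to 1.36). The other 2 were Cenpa (-0.69) and Cenpf, whose CM arrays all lay above MEF (1.36, limma's adjusted p = 0.0536). Between CiCM and CM, 8 were lower in CiCM (median -1.07), most of all Cenpf (-5.97) and Cenpa (-4.45). In each of the 3 comparisons 0 were called higher. Over all tested genes, 12.2%, 21.8% and 19% were lower in these 3 comparisons. Mki67, the proliferation marker, read 11.18, 10.63 and 10.86 in MEF, 5.74, 5.70 and 6.24 in CiCM, and 8.42, 8.95 and 9.50 in CM. Top2a, which untangles chromosomes, gave 6.09 to 6.79 in CiCM and 8.02 to 8.84 in CM, against 11.61 to 11.71 in MEF. Both genes were lowest in CiCM without overlap, by -3.06 ± 0.27 (adjusted p = 3.7e-06) and -1.96 ± 0.23 (adjusted p = 3.16e-05) from CM. Most CiCM signals of this list lay under the filter line, where the size of a difference is less certain. The difference between the 2 lists has no test here, since the genes of a list are not replicates.

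Markers of other cells moved with the groups and are given beside these results. The summed linear signal of 8 macrophage markers was 26695 to 29721 in MEF, 3980 to 6562 in CiCM and 12798 to 19823 in CM. Lyz2 had the highest signal of them in every group, so it weighs most in the sum. Against MEF, 8 of 8 were lower in CiCM. In CM 3 of 8 were lower and 0 higher, while Ptprc stood at -0.07 and Csf1r at 0.84. The summed linear signal of 7 endothelial markers was 2306 to 2417 in MEF, 483 to 637 in CiCM and 13871 to 15322 in CM. Flt1 had the highest signal of them in MEF. In CM 6 of 7 were higher than in MEF. In CiCM Flt1 (-3.51) and Emcn (-2.58) were lower, Vwf was higher (5.65, or 2.59 with 32 added) and 4 were not called. Of 8 fibroblast markers, 1 was lower and 2 were higher in CiCM, while 6 were lower and 2 higher in CM. The higher genes were Dcn and Lum in both (1.46 and 2.84 in CiCM, 1.92 and 3.08 in CM). Over all tested genes, 12.2% were lower and 11.6% higher in CiCM, and 21.8% and 22.1% in CM. Their part in the replication results was not tested.

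The labels were checked against defining markers. All 8 cardiomyocyte markers were higher in CM than in MEF. In CiCM 6 of the 8 were higher, while Ryr2, the calcium release channel of heart muscle, stood at 0.13 and Nppa at 1.95 (limma's adjusted p = 0.0708) from MEF, and 7 of 8 were lower than in CM. All 8 skeletal muscle markers, Myod1 and Myog among them, were higher in CiCM than in MEF. In CM 4 of the 8 were also higher than in MEF, namely Myl1 (8.48), Ckm (9.34), Myh8 and Myh4. The CM means of Myh8 (3.73) and Myh4 (4.47) lay under the filter line. Between CiCM and CM, 7 of the 8 were higher in CiCM, and Ckm was lower (-1.40). The largest cardiac gains of CiCM over MEF were in Actn2 (8.54), Myl2 (8.46) and Tnnt2 (6.90). Myh6 had a mean of 7.13 in CiCM against 15.72 in CM. The CiCM means of Tnni3 (5.77) and Pln (6.52) lay under the filter line, and with 32 added their differences from MEF were 1.05 and 0.84. The cells called CiCM here carried skeletal muscle transcripts and, of the cardiac list, mainly those of Actn2, Myl2 and Tnnt2.

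Members' promoters were searched on both strands for the E2F forms TTTCGCGC, TTTGGCGC, TTTCCCGC and TTTGCCGC, for CHR, a motif of late cell cycle genes (TTTGAA or TTCGAA), and for CCAAT. At least 1 E2F match was found for 15 of 39 members (38.5%), against 2.6% of 27025 genes with such a window, 4.57% of 10107 tested genes and 1 of 21 mitosis genes. Among the roles, 7 of 9 licensing genes had one, while nucleotide supply (5 genes) and single strand binding (3 genes) had none. CHR matches were found for 8 members (20.5%), near the 21.7% of all genes and 16.3% of tested genes, and for 15 of 21 mitosis genes (71.4%). CCAAT was in 24 members (61.5%), 15 mitosis genes (71.4%), 41.1% of all genes and 42.7% of tested genes. Forms of the E2F motif can overlap each other, as in Mcm5 and Mcm6, and overlapping matches count once per gene.

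The 15 members with an E2F match had a median difference of -2.56 in CiCM, with 13 called lower, and -1.92 in CM, with 12 called lower. The 23 measured members with a window and no match had medians of -1.59 and -1.23, with 15 and 14 called lower. This split was not tested, and 7 of the 15 are licensing genes. Outside licensing, matches lay in Gins3, Pola1, Pold1, Pole2, Rfc3, Lig1, Uhrf1 and Dnmt1. Of these, Gins3 (-0.81) and Rfc3 (-0.88) were not called in CiCM. Matches are printed for Uhrf1, the member with the largest difference in CiCM, and for Pola1 and Pole2.

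Uhrf1, chr17:56304117-56304146, plus strand: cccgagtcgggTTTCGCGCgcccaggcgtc

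Pola1, chrX:93632275-93632304, minus strand: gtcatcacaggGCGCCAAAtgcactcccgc

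Pole2, chr12:69228162-69228191, minus strand: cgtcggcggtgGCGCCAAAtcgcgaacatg

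A match describes letters in the reference genome, and no binding was measured. Mcm4, Gmnn, Gins1, Gins2, Prim2, Pole, Rfc2 and Ccne2 are not in the promoter table.

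**Figure D5:**
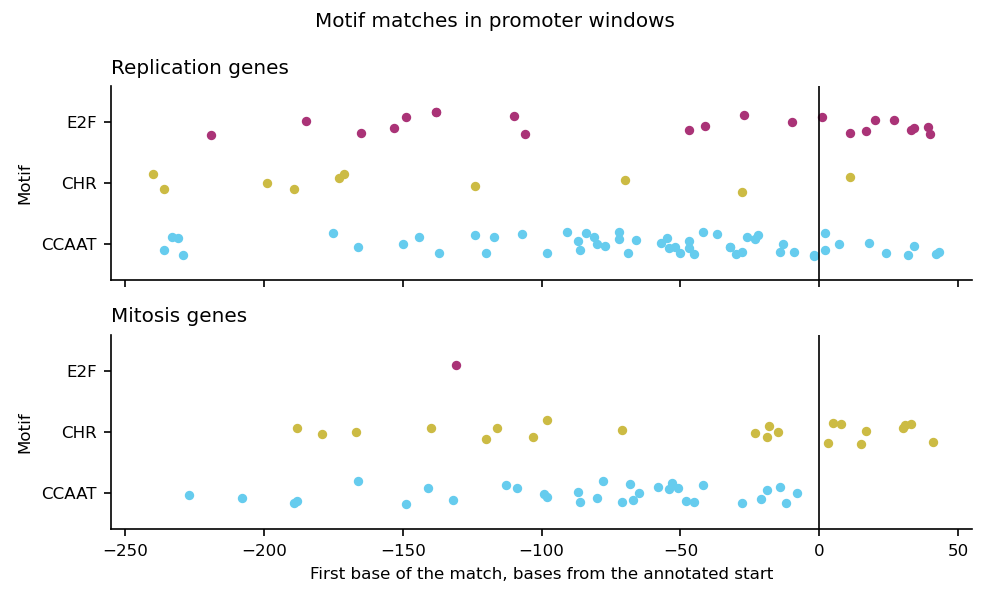
Each point is 1 match to an E2F, CHR or CCAAT form, placed by the distance of its first base from the annotated start (vertical line), for replication genes in the upper panel and mitosis genes in the lower. Matches to E2F lie almost all in replication genes (15 of 39 genes, against 1 of 21), and CHR matches are in 15 of 21 mitosis genes.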

How the data were processed

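RNA of 9 samples was measured on 1-colour Affymetrix mouse arrays after 3' labelling. The deposited series table holds the authors' log2 signals; the submitters' processing notes name MAS5, and the log2 scale was read from the values, whose linear trimmed mean (2% off each end) is the same on all arrays. Probe sets naming 1 gene were kept, 1 per gene, and genes were tested when a group mean reached the table median of 6.58, leaving 12559. Differences were tested with limma 3.58.1 in R 4.3.3 (lmFit and eBayes over all 9 arrays, 6 residual degrees of freedom, Benjamini-Hochberg adjustment over all tested genes per comparison), and called where the adjusted p was below 0.05 with a change of 1 or more on the log2 scale. Every adjusted p in the text is from this fit, unless another setting is named. The smallest exact permutation p of 3 against 3 is 0.1. The filter was applied to all 18193 genes, and the fit was tested on simulated data.

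Members and lists were chosen with earlier results of these data known. All members could be named whatever their call. From each other list the rule named up to 4 called genes per comparison by size, genes called against the list's majority, and Mki67, Top2a, Cdkn1a, Cdkn1c, Rb1, Rrm2b, E2f4, Ccnd1, Ccnd2 and Ccnd3 in any case. Replicates are biological by label, 3 per group, and their number limits the precision. The alternatives were added constants, quantile normalization, array levelling, probe set and filter choices, array weights, no minimum difference, a replicate block and leaving out each array. Figures used Python 3.11.15 with matplotlib 3.10.9, and pandas 2.3.3 read the tables.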

Additional observations from a re-analysis of the deposited data

How the results depend on the processing

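The members' lower counts against MEF stayed between 32 and 35 (CiCM) and between 29 and 32 (CM) when each array was left out in turn; the count higher in CM than in MEF, which is Gmnn alone, ranged from 0 to 1 and was 0 without the second CM array. With 32 added to the linear signals the member medians were -1.73 (CiCM minus MEF) and -1.7 (CM minus MEF). With the largest constant they were -1.42 and -1.23, no member (0) was higher in CM than in MEF, 3 were lower and 1 higher in CiCM than in CM, and 1900 genes in all were called for CiCM against MEF. Centring on array medians gave 0 higher in CM than in MEF, a CM median of -2.18 and a CiCM minus CM median of 0.01. Levelling on the hybridisation controls gave medians of -2.12, -2.61 and 0.27, 0 higher in CM than in MEF, and 4 lower in CiCM than in CM; both scalings turned the sign of the last median. The share of calls that were higher moved from 50.4% to 34.6% and 21.4% (CM against MEF), from 46.5% to 62.9% and 75% (CiCM against CM) and from 48.6% to 45.3% and 35.3% (CiCM against MEF) under these 2 scalings. The mean over probe sets gave medians of -1.72, -1.51 and -0.15, and 2 higher in CiCM than in CM. With no minimum difference, 6529, 8790 and 8089 genes were called in the 3 comparisons, with 2 members higher in CM than in MEF and 15 lower in CiCM than in CM. The cause was not tested.

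The same-numbered arrays did not deviate together over all tested genes (correlations from -0.02 to 0.07). The labels do not say whether equal numbers pair the samples, and this check cannot exclude it. With the replicate block 35 members were lower in CiCM than in MEF, 31 lower and 1 higher in CM than in MEF, and 8 lower and 4 higher in CiCM than in CM. Of the calls, 27 of 35, 27 of 32 and 4 of 12 were kept in each of the 23 alternatives that tested them. Signals near the background limit the low genes: most mitosis genes and 11 members lay under the filter line in CiCM and passed through other groups.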
